A study of Mus musculus with 2 samples.

Results

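Among the H3K4me3 events listed as higher in wild-type cells, 947 lay in clusters of 4 or more events with no listed change of another mark beside them. They were found by joining the 5542 events of that list at most 5 kb apart into regions, keeping regions of 4 or more events, and taking those of their events with no listed H3K27ac and no listed H3K36me3 event within 5 kb. Chromosomes 9 and X were left out. The 947 events fell into 218 regions and stood among 21418 events in the 6 lists of the series. "Alone" refers to the lists of differences only: H3K27ac or H3K36me3 may well be present at these places at levels that were not listed as different.

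The compared cells were Dicer KO mesenchymal stromal cells (MSCs) of the mouse and Dicer WT cells of the same kind. Sample titles call them fibroblasts. Both were monoclonal immortalized lines grown in Alpha-MEM with serum, so each genotype rests on clonal cells. Dicer is the ribonuclease that cuts microRNA precursors. The labels describe 1 sample per genotype, for H3K27ac, and the H3K4me3 lists carry the same genotype names without a sample of their own. No cell type marker can be checked in such lists. Each event has 1 value in KO and 1 in WT, so there is no replicate error and no test, and intervals below cover counting error only.

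H3K4me3, histone H3 trimethylated at lysine 4, is deposited by SET1 and MLL complexes and marks the promoters of active and poised genes, most of all those rich in CpG. In a usual promoter the mark covers the nucleosomes on both sides of the start site. Some genes, often those that define a cell type, carry it over a longer stretch that reaches into the gene. Active promoters usually carry H3K27ac as well, and transcribed gene bodies carry H3K36me3. Positions here are in mouse build mm9. Gene names are not given, because no annotation in mm9 was used here.

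Some events also carry a short sequence. The authors' software, GEM, looks for k-mers, short words of DNA that recur near the events, and the list names 3 of them, shown here because they are the sequence features that the rule did not use. Capitals mark the letters in which the 3 differ.
K-mer 1: cGcccGgt
K-mer 2: cCcccGgt
K-mer 3: cGcccTgt
Counted from 1 at the 5′ end, the second differs from the first by G2C and the last from the first by G6T. All 3 are rich in G and C.

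A k-mer was listed at 63 of the 947 members, 6.65% (95% interval 5.15 to 8.43), and at 188 of the 2882 other events of the list on the same chromosomes, 6.52% (5.65 to 7.49). These shares overlap within counting error. K-mer 1 stood at 25 members, K-mer 2 at 21 and K-mer 3 at 17. Of the 218 regions, 52 held at least 1 k-mer event and 10 held at least 2. The region with most, chr2:44964353-44966930, had 3: K-mer 1 at 44964353 on the plus strand, K-mer 2 at 44964985 on the plus strand and K-mer 2 at 44965575 on the minus strand. The member with the largest −log10 q among those with a k-mer, at 5729277 on chromosome 19, carried K-mer 1 on the minus strand, with 766 scaled reads in KO against 2206 in WT.

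For scale, the same words were sought on both strands in 32851 promoter windows of 300 bases from RefSeq (build GRCm38.p6). K-mer 1 was in 0.861% of them, K-mer 2 in 0.661% and K-mer 3 in 1.00%. The windows differ in length from the unknown stretch that the software searched, so these shares are no expectation for the events.

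The authors' software assigned reads to each event in WT and multiplied the KO reads to match. The ratio used here is WT over KO at that scale, as in the list's own fold. The list, and so the members, were chosen by the q value of WT reads against scaled KO reads, so reads and ratios are given as a description. Scaled KO reads per member ran from 2.8 to 1046 with a median of 275.9, against 82.5 to 2538 with a median of 747.7 in WT. The median ratio was 2.70, with quartiles of 2.36 and 3.18. Summed over all members, 286868 scaled reads in KO stood against 775794 in WT, a ratio of 2.70 (2.70 to 2.71).

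**Figure D1:**
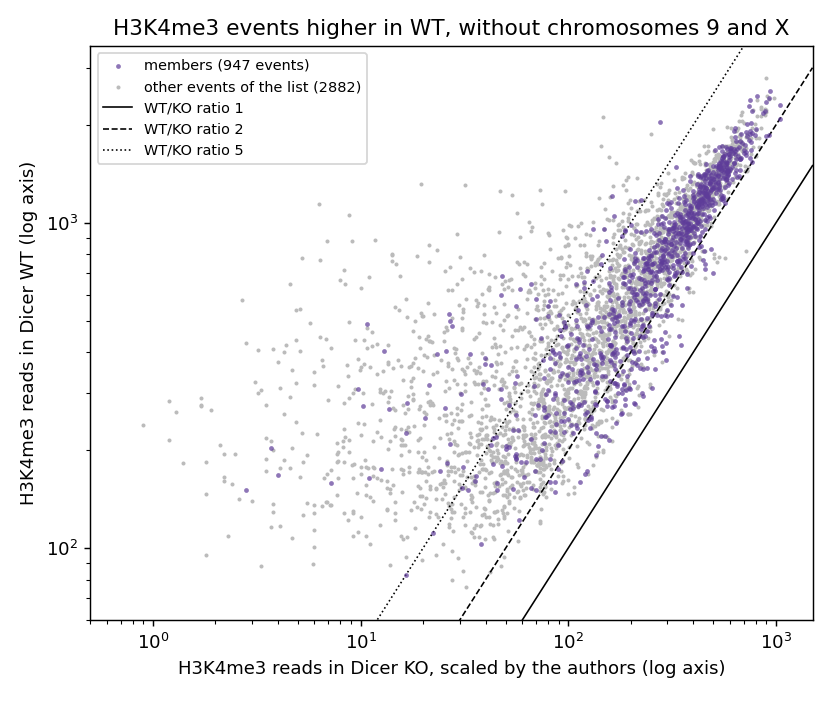
H3K4me3 reads per event in Dicer KO (scaled, horizontal log axis) and Dicer WT (vertical log axis) for the 947 members and the 2882 other events of the list on the same chromosomes; lines mark WT over KO ratios of 1, 2 and 5. Members crowd at the upper right, around a median of 275.9 scaled reads in KO and 747.7 in WT, and 72 lie on or above the line for a ratio of 5.

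A ratio of at least 2 was reached by 845 members (89.2%), where 93.5% of the whole list reached it. A ratio of at least 5 was reached by 72 members (7.60%), against 19.3% of the whole list. The whole list includes chromosomes 9 and X, where no member can lie. Most members, 729, had ratios from 2 to just under 4. Of the 100 events of the whole list with the largest −log10 q, 7 were members, where 947 of all 5542 events were. Large ratios were thus a smaller share of the members than of the list.

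KO cells kept many H3K4me3 reads at most of these places. A second scale divides the reads of each genotype by its background reads, the number that the authors' software expected at an event on that chromosome in the same genotype. The sources used here do not define that number further. It was taken as the chromosome's median, for WT from the H3K4me3 list higher in WT and for KO from the list higher in KO. Scaled KO reads were first divided by the recovered scaling factor, 0.461, which is itself uncertain. On the background scale, members had a median of 4.28 times background in KO (quartiles 2.40 and 6.65) and 6.17 times in WT (3.58 and 9.64). KO reads were at least 2 times background at 759 members and at or below background at 64 (6.76%, 5.24 to 8.55). With the mark alone, 14.3% of events in regions of 2 or 3 and 52.2% of single events were at or below background. In clusters beside another mark it was 22.3%. The KO medians of these 3 kinds were 2.99, 0.957 and 2.82 times background, and that of events on chromosomes 9 and X was 4.96. A share of the whole list was not computed at either limit.

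The background scale also lowered the difference. The median ratio of the members was 1.43 on it, with quartiles of 1.24 and 1.72. A background-scaled ratio of at least 2 was reached by 164 members (17.3%, 14.96 to 19.9), where 30.1% of the whole list reached it. Below 1, with more reads in KO than in WT relative to background, were 88 members (9.29%, 7.52 to 11.3), where 11.0% of the whole list were. The whole list includes chromosomes 9 and X, whose events had a median of 1.18 on this scale. On the members' chromosomes, the share below 1 was 5.41% of events in clusters of 4 or more beside another mark. Among events with the mark alone it was 5.66% in regions of 2 or 3 events and 0.716% of single events. By region, 19 of 218 reached 2 and 5 fell below 1.

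The rule fixed the number of events in a region, not the width of the mark, and the regions were compact. Member events spanned a median of 2188 bp per region (deciles 1362 and 3771, longest 8542, and 1 bp in the 8 regions with a single member), and neighbouring members lay a median of 662 bp apart (quartiles 537 and 790). In 129 regions there were 4 members, in 50 there were 5, in 18 there were 6, in 3 there were 7, in 2 there were 8 and in 1 there were 9. The remaining 15 regions held 1 to 3 members, 27 in all, because their other events had a listed change of another mark within 5 kb. Region ratios had a median of 2.64 with quartiles of 2.52 and 2.85, a narrower range than that of the single events.

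The region with most members lay at chr19:5798121-5803324. Its 9 events together had 4093 scaled reads in KO against 12659 in WT, at a ratio of 3.09 (3.01 to 3.18). No other region had as many WT reads. From the lower to the higher coordinate, the events had 307, 365, 419.5, 487, 633, 753, 561, 358 and 208 scaled reads in KO, against 1146, 1145, 1392, 1399, 1963, 2387, 1609, 1025 and 592 in WT. Both genotypes peaked at the same event, and event ratios stayed between 2.85 and 3.73. Relative to background the region's ratio was 1.43.

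The pair of 8-event regions, chr10:21713467-21718512 and chr13:16106823-16111681, had ratios of 2.40 (2.32 to 2.49) and 3.03 (2.90 to 3.16). Those of 7 events were at chr14:55192398-55196862 (ratio 2.55, 2.46 to 2.64), at chr10:27794004-27797004 (2.57, 2.47 to 2.67) and at chr8:94321953-94326297 (2.98, 2.84 to 3.13). Among the 18 regions of 6 events, the one with most WT reads was at chr19:8796809-8799873, with 2753 scaled reads in KO against 7628 in WT. It was followed by chr1:165240137-165243499, with 2917 scaled reads in KO against 7519 in WT. All of these had ratios from 2.40 to 3.03, and their background-scaled ratios ran from 1.19 to 1.81. With 5 events, chr10:114820633-114823737 was the fifth most read region, with 2789 scaled reads in KO against 7248 in WT.

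Length was described in the same way. The member events of chr17:44941910-44950451, 6 in number, spanned 8542 bp, the most of any region, and its ratio was 2.35 (2.26 to 2.43). The 5 events of chr10:80598908-80605732 spanned 6825 bp (ratio 2.48, 2.39 to 2.58), the 6 of chr10:80887217-80893694 spanned 6478 bp (ratio 1.95, 1.87 to 2.03), and the 4 of chr19:5725213-5731436 spanned 6224 bp (ratio 2.50, 2.42 to 2.59). Next in span came the 9-event region on chromosome 19, 5204 bp with a ratio of 3.09, and chr6:4456060-4461148, 5089 bp with a ratio of 3.56 (3.43 to 3.70), so long regions lay on both sides of the median member's 2.70.

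A few regions differed far more. At chr3:32716305-32717575, the 4 events had 4, 13, 10.7 and 3.7 scaled reads in KO, against 167.9, 402.7, 487.9 and 203.4 in WT. The mark was near the bottom of the range in KO at every event, and the region's ratio of 40.2 (31.6 to 52.2) was the largest of all. It remained 24.0 on the background scale. Its event at 32716652 carried K-mer 3 on the plus strand.

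Second came chr12:86216026-86217539, where 3 of 4 events were members. They had 2.8, 27.1 and 38.7 scaled reads in KO, against 150.8, 499.2 and 319 in WT, and a joint ratio of 14.1 (11.9 to 16.9), or 10.0 on the background scale. The first of them had a ratio of 53.9, with an interval from 24.5 to 151, as KO held only 6 unscaled reads there.

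The region chr16:34921958-34926037 had 105 scaled reads in KO against 1199 in WT, a ratio of 11.4 (9.90 to 13.2). The difference was uneven along it: the first event had 9.7 scaled reads in KO against 308.7 in WT, which makes a ratio of 31.8 (20.5 to 52.4). The last had 56.2 scaled reads in KO against 189 in WT, or 3.36 (2.67 to 4.26). The region chr2:16277671-16280820 had 6 events with ratios from 6.95 to 14.3 and 284 scaled reads in KO against 2772 in WT, a ratio of 9.75 (8.94 to 10.7). KO reads were at 0.380 to 1.19 times background across these 6 events, against 2.50 to 6.37 times in WT.

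Other regions with large ratios were chr16:24448474-24450572 (ratio 5.90, 5.17 to 6.74) and chr8:96334032-96337059 (5.23, 4.93 to 5.54). Within the region on chromosome 8, the event ratios ran from 1.84 at one edge to 12.7 inside. In all, 8 of 218 regions reached a ratio of 5, and 4 reached it on the background scale.

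The member with the largest −log10 q of all, at 4456060 on chromosome 6, had 276.5 scaled reads in KO against 2041 in WT, a ratio of 7.38 (6.74 to 8.10). The region around it, chr6:4456060-4461148, changed in steps. Its 6 events had 276.5, 162, 200.7, 546, 483.9 and 413.4 scaled reads in KO, against 2041, 1210, 987, 1186, 1033 and 962 in WT. The first 3 had ratios of 7.38, 7.47 and 4.92 and the last 3 ratios of 2.17, 2.13 and 2.33. In WT the most reads lay at the outermost event, whereas in KO they lay at the fourth.

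Next by −log10 q came 4456851 in the same region, then 5801113 in the 9-event region, 5490875 (810.7 scaled reads in KO against 2457 in WT) and 6277242 (742 scaled reads in KO against 2289 in WT), the last 3 on chromosome 19. These 3 events on chromosome 19 had high reads in both genotypes and ratios from 3.03 to 3.17.

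A gradient in 1 direction was also seen at chr10:83901503-83904017, which held the members ranked 6 and 8 by −log10 q. There the ratio was 5.61 (5.03 to 6.27), 4.48 (4.09 to 4.90), 3.21 (2.97 to 3.46) and 2.24 (2.05 to 2.44) from the lower to the higher coordinate. KO reads were 209, 331, 532 and 458 after scaling, against 1170, 1483, 1706 and 1023 in WT. KO reads were fewest at the first of the 4 events, whereas WT reads were fewest at the last.

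**Figure D2:**
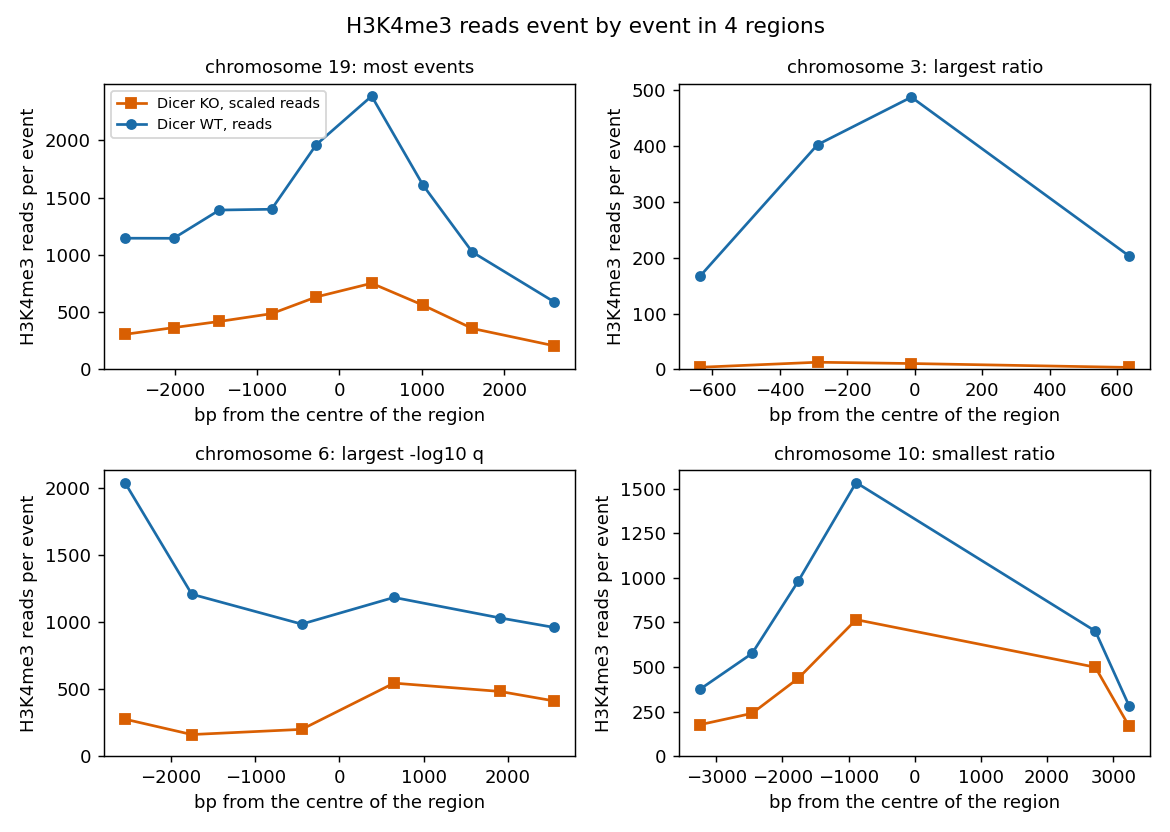
H3K4me3 reads per event (vertical axis) by distance in bp from the centre of the region (horizontal axis) for 4 regions, with scaled Dicer KO reads as squares and Dicer WT reads as circles. KO follows the WT shape at 5798121 on chromosome 19, stays between 3.7 and 13 on chromosome 3, lies lowest over the first 3 events on chromosome 6 and runs closest to WT on chromosome 10.

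The smallest region ratio of all, 1.44 (1.28 to 1.64), belonged to a region on chromosome 10 with a single member, 116587440, which had 295.3 scaled reads in KO against 426.7 in WT. The smallest ratio among regions of 4 or more members was 1.95 (1.87 to 2.03), at chr10:80887217-80893694, with 2288 scaled reads in KO against 4453 in WT. On the background scale it was 0.960, so that KO was then the higher. Next came chr16:45093654-45098558 (1.98, 1.86 to 2.12), chr19:6057208-6058854 (2.02, 1.93 to 2.11), chr14:103744405-103746442 (2.22, 2.10 to 2.34) and chr10:125403606-125405491 (2.23, 2.13 to 2.33). The single member with the smallest ratio, at 6276324 on chromosome 19, had 349.7 scaled reads in KO against 422.4 in WT, a ratio of 1.21 (1.07 to 1.36). Other small ratios were at 24108686 (1.23, 1.07 to 1.42) and 67011925 (1.28, 1.12 to 1.45) on chromosome 5, at 144481994 on chromosome 4 (1.28, 1.11 to 1.48) and at 110356944 on chromosome 10 (1.31, 1.16 to 1.47). All 5 of these events were below 1 on the background scale.

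Events within a region often differed from each other by more than counting error. Among the 203 regions of 4 or more members, the largest event ratio was a median of 1.77 times the smallest, and at least 2 times in 77 regions. In 183 of the 203, the interval of the highest event lay wholly above that of the lowest. These are the extremes of each region, so a gap between them is partly a matter of choice. Reads can be copies of 1 molecule, so counting error can understate the true error.

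The place of an event in its region went with its reads. In the 203 regions whose events were all members, the outermost events had a median of 184.9 scaled reads in KO (quartiles 100.2 and 295.1), against 421.7 in WT (283 and 740). The next events inward had 358 scaled reads in KO (233 and 476.5), against 967 in WT (704 and 1314), and events further inward had 390.5 in KO, against 1060 in WT. Both genotypes thus had more reads in the middle. The fewest WT reads lay at an outermost event in 186 of 203 regions, 91.6% (86.9 to 95), while outermost events made up 44.1% of all events.

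Ratios were also lower at the edges, with a wider spread. The median ratio was 2.57 at outermost events (quartiles 2.09 and 3.31), 2.78 at the next ones (2.54 and 3.12) and 2.71 further in (2.48 and 3.04). Pooled over reads, the outermost events had a smaller ratio than the inner ones in 158 of 203 regions, 77.8% (71.5 to 83.3). The lowest event ratio of a region was at an edge in 159 regions and the highest in 108, so edges held many of both extremes. In the 129 regions of 4 events, where edges are 50% of the positions, the counts were 106 and 78. Outermost events have fewer reads and so larger counting error, and the software shares reads between neighbouring events. The part of these in the edge ratios was not tested.

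**Figure D3:**
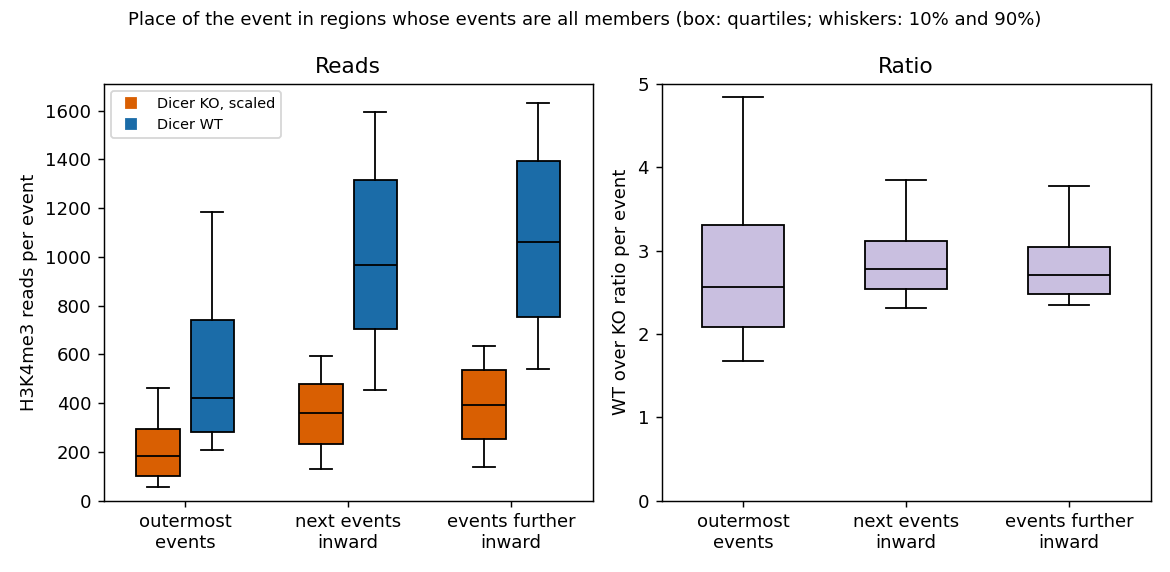
H3K4me3 reads per event (left, scaled Dicer KO beside Dicer WT) and WT over KO ratio per event (right) by place of the event in the 203 regions whose events were all members; boxes show quartiles with the median, whiskers the 10% and 90% points. Reads are lowest at the outermost events in both genotypes, and the ratio there has a median of 2.57 and the widest box.

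K-mer events lay inside their regions more often than members in general. Of the 63 k-mer members, 47 were not outermost, 74.6% (62.1 to 84.7), where 514 of the 920 events of the same regions were not, 55.9%. They also had more reads, a median of 340.7 scaled reads in KO against 932 in WT, while members without a k-mer had 268.75 in KO against 737 in WT. The median ratio was 2.77 with a k-mer (quartiles 2.53 and 3.11) and 2.70 without (2.35 and 3.18). Events near a region's middle have more reads, and the part of this in the read difference was not tested.

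Members were set beside other events of the list on the same chromosomes. The 444 events of clusters of 4 or more that did have another mark within 5 kb had a median of 172 scaled reads in KO against 713 in WT, and a median ratio of 3.88 (quartiles 2.75 and 7.27), above the 2.70 of the members. WT medians of the members and of these events were 748 and 713, a smaller gap than that of the KO medians, 276 and 172. A ratio of at least 5 was reached by 7.60% of the members and by 38.5% (34.0 to 43.2) of the clustered events beside another mark. On the background scale, 17.3% of the members reached 2, against 57.7% (52.9 to 62.3).

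Single events with the mark alone, 559 in number, had far fewer reads: a median of 55.7 scaled reads in KO against 234 in WT. Their median ratio was 3.92, and 52.2% of them (48.0 to 56.4) were at or below background in KO, against 6.76% of the members. Regions of 2 or 3 events, mark alone, lay between, with a median of 189.5 scaled reads in KO against 568 in WT and a ratio of 2.86. An event with more reads passes the authors' threshold at a smaller ratio, so depth and ratio are linked in this list. The part of depth in these differences was not tested.

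**Figure D4:**
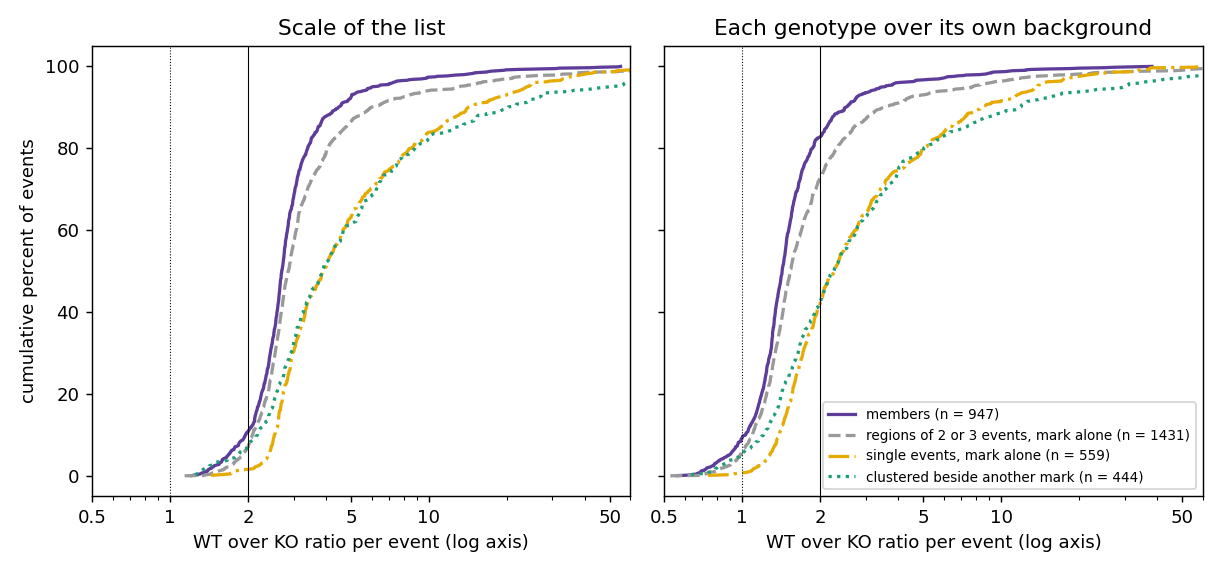
Cumulative percent of events (vertical axis) by WT over KO ratio (horizontal log axis) at the scale of the list (left) and with each genotype divided by its own background reads (right), for members and 3 other kinds of event without chromosomes 9 and X; the solid vertical line marks 2 and the dotted one 1. Members lie furthest left above a ratio of 2, with medians of 2.70 and 1.43 at the 2 scales.

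Values just inside and just outside the rule's limits are given as a description. Regions of 3 events, mark alone, held 741 events with a median ratio of 2.77, and members in regions of exactly 4 events had 2.72. The members nearest to another mark were both on chromosome 5, at 111409563 and 141083668, with an H3K36me3 event 5051 and 5098 bp away and ratios of 5.19 (4.4 to 6.12) and 3.29 (2.98 to 3.63). Just outside the rule, at under 5 kb, were 56501933 on chromosome 7 and 66723467 on chromosome 15, with an H3K36me3 event 4999 and 4954 bp away and ratios of 2.62 (2.39 to 2.87) and 2.55 (2.39 to 2.72).

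Beyond the 5 kb used by the rule, the listed changes found near the largest numbers of regions were H3K36me3 higher in WT and H3K27ac higher in KO. Of the 218 regions, 43 (19.7%) had an H3K36me3 event higher in WT within 20 kb of a member and 84 (38.5%) within 100 kb. In 15 of the 218, events left out by the rule had a listed change of another mark within 5 kb. The nearness of the members of these 15 regions to another mark was thus largely fixed beforehand. H3K27ac events higher in KO lay within 20 kb of 10 regions (4.59%) and within 100 kb of 60 (27.5%), and H3K27ac events higher in WT within 100 kb of 23 (10.6%). The H3K27ac list of KO holds 8323 events and that of WT 1765, so these counts do not compare the directions. H3K36me3 events higher in KO lay within 100 kb of 6 regions. No member had a KO-higher H3K4me3 event within 10 kb, and 16 regions (7.34%) had one within 100 kb. With the mark alone, 2 of 1431 events in regions of 2 or 3 and 2 of 559 single events had one within 10 kb. Within 100 kb it was 4.36% of regions of 2 or 3 events and 3.58% of single events. For H3K27ac the same 2 shares within 100 kb were 21.6% and 19.7% for events higher in KO. For H3K27ac events higher in WT they were 9.06% and 14.3%.

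Single events with the mark alone had an H3K36me3 event higher in WT within 20 kb in 29 of 559 regions (5.19%), and regions of 2 or 3 events in 75 of 596 (12.6%), against 19.7% of the member regions. The 43 member regions behind that share include most of the 15 regions whose nearness to another mark the rule largely fixed. The 19.7% can thus not be read as an excess over the other kinds. Wider regions also have more chances to lie near another event, and the counts were not adjusted for either.

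The members were spread unevenly over chromosomes. Chromosome 10 held 215 of the 947 (22.7%) in 50 regions, chromosome 4 held 130, chromosome 19 held 117 and chromosome 5 held 91, so that these 4 had 553 members in 126 regions. Chromosome 10 held 14.8% of the list's events on the chromosomes used. Of its 567 listed events, 37.9% (33.9 to 42.1) were members. On chromosome 7 the share was 7.46% (3.64 to 13.3), with 10 members of 134, and on chromosome 2 it was 8.96% (5.48 to 13.6). Events of 1 region are not independent, so these intervals are too narrow.

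Within chromosome 10, members lay in 11 of 13 stretches of 10 Mb. From 120 to 130 Mb lay 46 of its 215 members and 118 of its 567 listed events. From 110 to 120 Mb lay 40 members and 69 listed events. On chromosome 19, 70 of the 117 lay in the first 10 Mb, where 228 of the chromosome's 380 listed events were as well. On chromosome 4, 32 of the 130 members and 71 of the 455 listed events lay from 40 to 50 Mb. From 120 to 130 Mb lay 27 members and 66 listed events.

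Background reads also differed between chromosomes, only in part along with this distribution. Relative to the median chromosome, the KO over WT ratio of H3K4me3 background reads was 0.834 on chromosome 10, 0.785 on chromosome 19, 0.865 on chromosome 4 and 0.918 on chromosome 5, and it was 1.04 on chromosome 7 and 1.05 on chromosome 2. Member shares were 30.8% on chromosome 19, 28.6% on chromosome 4 and 26.9% on chromosome 5. They were also high on chromosomes 8 (29.7%), 14 (29.4%), 17 (28.4%) and 13 (25.5%), where the background ratio was 0.959, 0.931, 0.993 and 1.01. On chromosomes 15 (21.6%), 11 (18.6%) and 3 (16.9%) it was 0.943, 1.01 and 1.01. On chromosomes 16 (18.7%), 18 (18.4%), 6 (13.6%), 1 (12.5%) and 12 (10.1%) it was 1.07, 1.07, 1.05, 1.07 and 1.20. At the scale of the list, members on the 4 chromosomes with most members had a median ratio of 2.69 and the 394 others 2.73. The background scale multiplies every ratio on a chromosome by the same number. Differences between chromosomes on it thus largely restate the background ratios above and are no separate result. The medians on that scale were 1.33 and 1.60. A background-scaled ratio of at least 2 was reached by 38 of the 553 (6.87%, 4.91 to 9.31) and by 126 of the 394 (31.98%, 27.4 to 36.8). Of the 88 members below 1 on that scale, 70 were on these 4 chromosomes. The part of whole-chromosome differences in the members was not tested.

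By chromosome, the median background-scaled ratio of the members was lowest on chromosome 19, at 1.24 (quartiles 1.11 and 1.38), and on chromosome 10, at 1.32 (1.15 and 1.48). Both chromosomes also had the lowest KO over WT background ratios, which sets this order, as their medians at the scale of the list were 2.68 and 2.67. The background-scaled median was highest on chromosome 12, at 3.55, which rests on 7 members in 2 regions. On chromosome 18 it was 2.43 with 19 members, on chromosome 16 it was 2.20 with 17, and on chromosome 6 it was 2.04 with 27. The order at the scale of the list was less spread: the medians ran from 2.36 on chromosome 11 to 5 on chromosome 12, and all but 4 chromosomes lay from 2.36 to 2.94.

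**Figure D5:**
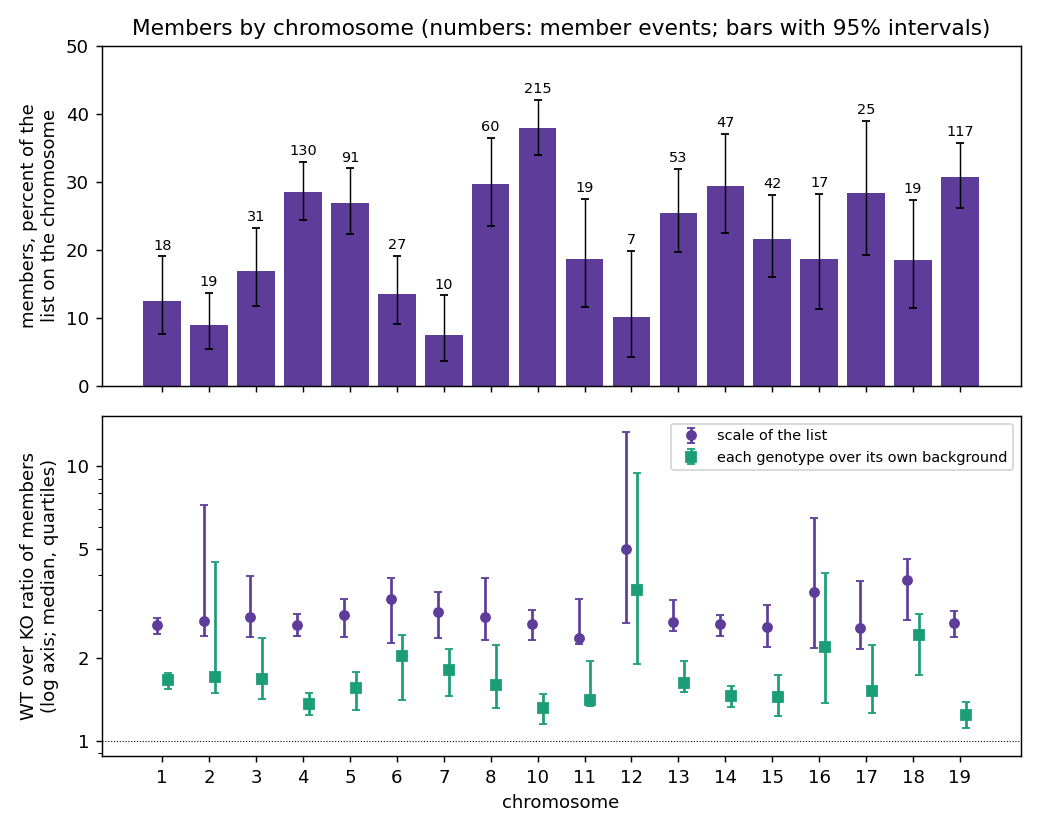
Members as a percent of the chromosome's listed events (top, with exact 95% intervals and the number of members) and median WT over KO ratio of the members with quartiles on a log axis (bottom), at the scale of the list (circles) and over own background (squares), by chromosome. Chromosome 10 has the most members, 215. The background-scaled medians of chromosomes 19 and 10 are the lowest, 1.24 and 1.32, where the KO over WT background ratio is lowest too.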

How the data were processed

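The deposited lists hold predicted ChIP-seq events for 3 histone marks, aligned to mouse build mm9; TopHat 1.4 is named without a role, per the submitters' processing notes. Per the file names, the H3K4me3 events higher in WT come from GEM and set WT against KO. The same names say noControl, which is not explained further, and KO was taken as the column headed Control. Whether replicates were pooled is not stated. Per the file headers, each event has an estimated count in WT, a scaled signal in KO, their deposited ratio, the reads expected by the software (called background reads here, an undefined signal) and −log10 q and p values, limited at 999 and starting at a −log10 q of 2. Further deposited score columns describe event shape and k-mers, and only the k-mers were used.

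The factor applied to KO was recovered as the step (0.3 to 3, every 0.0005) at which most control values were whole multiples within 0.06: 0.461, with 54.3% whole, so it is less certain than for the other lists. Ratios are WT reads over scaled KO reads. Their 95% intervals are exact conditional binomial (Clopper-Pearson) intervals of the unscaled whole reads, the same exact method gave the intervals of shares, and all cover counting error only. Total depth is unknown. Functions were tested on simulated data. Members, lists and comparisons were chosen with earlier results of these data known. Regions and events named are the 10 regions with most members, the 5 with the largest and smallest ratio among regions of 4 or more members, the longest and the most read, the events with the largest −log10 q and the extreme ratios, and those at the limits of the rule; a graded region on chromosome 10, a k-mer-rich region on chromosome 2, the chromosome 12 region and the single-member region with the smallest ratio were added after their values were seen. Scripts ran in Python 3.11.15; SciPy 1.17.1 gave the intervals, pandas 2.3.3 and NumPy 2.4.6 the joins and medians, and matplotlib 3.10.9 the plots. Gene annotation, replicates and tests between genotypes were not used here.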

Additional observations from a re-analysis of the deposited data

How the results depend on the processing

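Of 43 alternative values, 28 stayed within 1.5 times the main count or within the 95% interval of the main value. Those at a minimum of 50 WT reads were fixed beforehand, as no member had fewer than 82.5. With regions of 3 or more events there were 1688 members in 467 regions, and with 6 or more 156 in 26, with a median ratio of 2.79. With other marks only required to be farther than 1 kb the median ratio was 2.75, with the region as unit 2.64 (also the median set beside the pooled 2.70), with own background reads 1.43 and with unscaled reads 1.24, at which 155 members had more reads in KO. Without chromosomes 10, 4, 19 and 5, chosen after seeing the data, 394 members in 92 regions had a background-scaled median of 1.60. With the median background over chromosomes that median was 1.53, and with chromosomes 9 and X included 1.33. No median fell below 1. No paired analysis was possible because KO and WT each have a single value at an event, and no replicate could be left out. Every alternative starts from events that passed at the authors' scale.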
